A study of Mus musculus with 2 samples.

Results

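The genes described here carry out or support the breakdown of fatty acids in mitochondria and peroxisomes. They were chosen by symbol from a list of 53, of which 51 were found among the 18722 loci of the deposited table; Cpt1b and Pex16 were not analysed here. They fall into 17 mitochondrial oxidation enzymes, 10 genes that activate fatty acids or carry them on carnitine, 12 peroxisomal enzymes and transporters, and 12 peroxins. Testis RNA of male C57BL/6J mice aged 16 weeks was sequenced in 2 libraries. One came from testis labelled shDmrt1 with the genotype Dmrt1 knockdown, in which a short hairpin RNA targets Dmrt1, a DNA-binding regulator that spermatogonia and Sertoli cells need. The other came from testis labelled shControl with the genotype WT. How the hairpins were given, and the number of mice or testes behind a library, are not in the labels.

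Fatty acids are joined to coenzyme A by acyl-CoA synthetases, passed into mitochondria on carnitine, and shortened there by repeated cycles of a dehydrogenase, a hydratase, a second dehydrogenase and a thiolase. Peroxisomes run a similar cycle on very long and branched chains, begin it with an oxidase, and hand the shortened chains on to mitochondria. Peroxins are the proteins that build peroxisomes and import their enzymes. In the testis, Sertoli cells use fatty acid oxidation as an energy source, and steroid-making Leydig cells are rich in both mitochondria and peroxisomes.

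The shDmrt1 library held 24594371 counts and the shControl library 17846426. With 1 library per group there is no replicate and no test between groups, so each value compares 2 libraries, not the conditions, and higher and lower are said of libraries. Ratios are shDmrt1 over shControl on TMM-scaled counts (trimmed mean of M-values), given as log2 with a 95% interval that covers counting error only. A gene is called higher or lower where the libraries differed by 1.5-fold or more and the interval left out a log2 ratio of 0. Genes count as measured with at least 1 CPM, a count scaled to the library total, in 1 library, which 50 of the 51 passed. Levels are the authors' FPKM values, which are per transcript length. Dmrt1 had 39 counts in the shDmrt1 library and 852 in the shControl library, 21.9-fold lower. The libraries also differed in cell markers. All 7 Leydig cell markers were lower, with 240 CPM in the shDmrt1 and 23375 CPM in the shControl library in sum, and so were all 7 Sertoli cell markers, with 518 CPM in the shDmrt1 and 6524 CPM in the shControl library. All 6 macrophage markers were higher, with 4002 CPM in the shDmrt1 and 352 CPM in the shControl library, and the 4 neutrophil markers had 15546 shDmrt1 and 2 shControl counts. Germ cell markers, which mark the bulk of an adult testis, were scarce in both libraries, with 1.79 CPM in the shDmrt1 and 128 CPM in the shControl library over 8 genes. The part of these differences in the results below was not tested. In whole tissue, fewer cells of a type and less RNA per cell cannot be told apart.

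Most fatty acid oxidation and peroxisome genes were lower in the shDmrt1 library. Of the 50 measured members, 34 were lower, 3 higher and 13 neither (median log2 ratio -1.15). Among all 15104 measured loci, 32.5% were lower and 29.7% higher by the same rule, and their median was -0.02. The members thus held a larger share of lower genes than the measured loci as a whole, 68%, and a smaller share of higher ones, 6%. The members were chosen with earlier results of these data known, so these shares describe the chosen genes and are no test. The mitochondrial enzymes were lower almost throughout, whereas the peroxins and the peroxisomal enzymes were divided between lower and neither. The 3 higher members were the synthetase genes Acsl1 and Acsl5 and the peroxisomal thiolase gene Acaa1a. In the GENCODE annotation the exons of 15 members overlap a gene on the opposite strand. For 10 of them (Acadvl, Hadha, Echs1, Etfdh, Acsl5, Crat, Acaa1a, Acaa1b, Pex3 and Pex13) such a gene has a row in the deposited table, and for the other 5 (Acsl6, Cpt1c, Acox3, Eci2 and Pex14) the opposite gene was not analysed here. Reads of such genes cannot be told apart without knowing the strand counted, and the ratios of these 15 are uncertain to that extent. Etfb, Acsl3 and Crot share exon bases with genes on the same strand (Gm45233 and Mir7051, Utp14b, and Gm27941), which were not analysed here. Knowing the strand would not separate those reads.

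**Figure D1:**
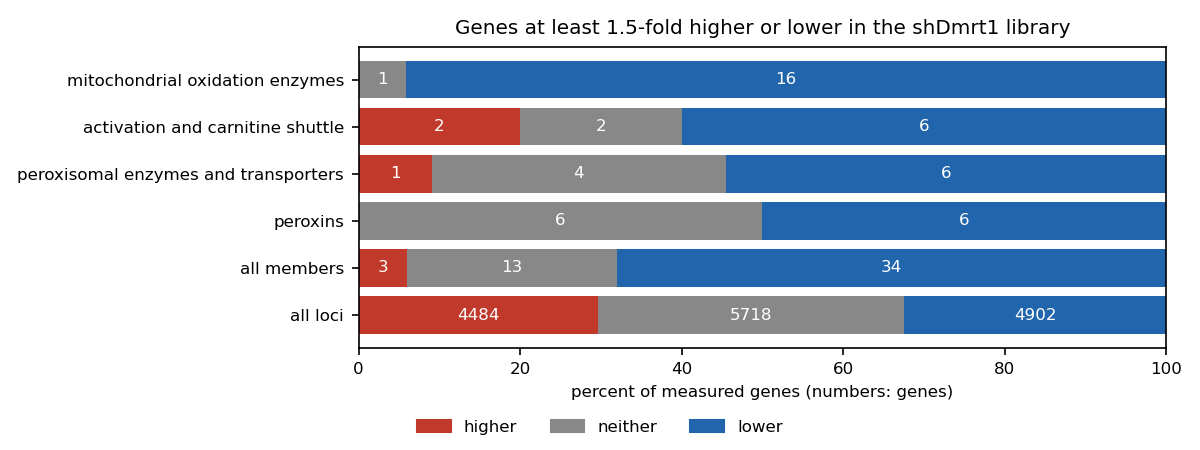
Percent of measured genes at least 1.5-fold higher, neither or at least 1.5-fold lower in the shDmrt1 than in the shControl library, for each role, for all 50 measured members and for all 15104 measured loci, with the number of genes in each bar. Lower genes make up 16 of 17 mitochondrial enzymes and 6 of 12 peroxins, beside 32.5% of all measured loci.

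Of the 17 mitochondrial oxidation enzymes, 16 were lower and 1 was neither (median log2 ratio -1.56), beside 32.5% lower among all measured loci. The values ran between -2.91 and -0.44, and all 17 lay below the median of all measured loci. The genes of the first, dehydrogenating step, which differ in the chain length they take, had log2 ratios between -1.97 and -1.56. The intervals of Acadl and Acadm lay below those of Acadvl, Acads and Acadsb. Acadvl, for very long chains, had 1242 counts in the shDmrt1 and 3889 in the shControl library, or 31.2 and 95.6 FPKM, with a log2 ratio of -1.67 (-1.76 to -1.57). Acadl, for long chains, had 1097 shDmrt1 and 4223 shControl counts and a log2 ratio of -1.96 (-2.06 to -1.87). Acadm, for medium chains, had 1112 shDmrt1 and 4297 shControl counts, or 34.1 and 125 FPKM, and -1.97 (-2.07 to -1.88), so its interval overlapped that of Acadl. Acads, for short chains, had 691 shDmrt1 and 2003 shControl counts and was 2.94-fold lower. Acadsb, whose enzyme also acts in isoleucine breakdown, had 1442 shDmrt1 and 4460 shControl counts and was 3.14-fold lower.

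The later steps of the cycle spread more widely. The thiolase gene Acaa2 (ENSMUSG00000036880, chromosome 18, 74779197 to 74806208 on GRCm38, a protein-coding gene) gave 1015 counts in the shDmrt1 and 7515 in the shControl library. It stood lowest of the 17, 7.51-fold lower, at a log2 ratio of -2.91 (-3.00 to -2.81). By FPKM, Acaa2 was the 13th of the 51 members in the shDmrt1 library, at 40.4 FPKM, and the first in the shControl library, at 292 FPKM. Hadh, which makes the 3-hydroxyacyl-CoA dehydrogenase for shorter chains, had 1395 shDmrt1 and 6538 shControl counts, or 45.2 and 210.2 FPKM, and was 4.75-fold lower (log2 -2.25, interval -2.33 to -2.17). The hydratase gene Echs1 was the 1 mitochondrial member that was neither, with 3234 counts in the shDmrt1 and 4313 in the shControl library and a log2 ratio of -0.44 (-0.50 to -0.37). With library totals in place of TMM, Echs1 too was called lower, at -0.88. Echs1 reached 3.07 times the FPKM of Acaa2 within the shDmrt1 library and 0.561 times within the shControl library, a contrast that no scaling of libraries alters. Hsd17b10, a dehydrogenase of isoleucine breakdown that also takes part in mitochondrial RNA processing, was next nearest to no change, at -0.73 (-0.84 to -0.62). The thiolase gene Acat1, of ketone body and isoleucine breakdown, had 1472 counts in the shDmrt1 and 4774 in the shControl library, 3.29-fold lower. The auxiliary enzymes for unsaturated chains were lower as well. Eci1 had 463 shDmrt1 and 1106 shControl counts, 2.42-fold lower, and Decr1 had 706 shDmrt1 and 1864 shControl counts, 2.68-fold lower.

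Electrons from the acyl-CoA dehydrogenases pass to the electron transfer flavoprotein, of subunits Etfa and Etfb, and then to its oxidoreductase, Etfdh. The subunit genes had nearly equal ratios by counts. Etfa had 1527 counts in the shDmrt1 and 3482 in the shControl library, or 69.2 and 161 FPKM, a log2 ratio of -1.21 (-1.30 to -1.12). Etfb had 1173 shDmrt1 and 2695 shControl counts, or 99.6 and 259 FPKM, and -1.22 (-1.32 to -1.12). By FPKM the log2 ratios were -1.21 for Etfa and -1.38 for Etfb, the latter outside its counting interval. Etfdh stood apart from both, with 682 shDmrt1 and 3682 shControl counts, or 15.2 and 79.5 FPKM, 5.47-fold lower (log2 -2.45, interval -2.57 to -2.33). Within the shDmrt1 library Etfdh had 0.219 times the FPKM of Etfa, and within the shControl library 0.494 times. Along the order of the 17 enzymes, 10 of the 16 neighbouring pairs had overlapping intervals; Acaa2, Etfdh, Hadh, Hsd17b10 and Echs1 did not overlap with a neighbour on either side.

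Hadha and Hadhb encode the subunits of the trifunctional protein, which carries out the last 3 steps on long chains. Hadha (ENSMUSG00000025745, chromosome 5, 30118304 to 30155162) had 2294 counts in the shDmrt1 and 5839 in the shControl library, or 30.7 and 74.9 FPKM, 2.58-fold lower. Hadhb (ENSMUSG00000059447, chromosome 5, 30155248 to 30184593) had 2034 shDmrt1 and 4533 shControl counts, or 62.3 and 141 FPKM, 2.26-fold lower. Their log2 ratios were -1.37 (-1.44 to -1.30) and -1.18 (-1.25 to -1.10), and their intervals did not overlap. The FPKM of Hadhb was 2.03 times that of Hadha in the shDmrt1 library and 1.88 times in the shControl library, so the balance of the subunit transcripts differed little between libraries. The 2 genes stand head to head on opposite strands, with RefSeq transcript starts 273 bases apart, and the 300-base windows from 250 bases before to 50 after each start share 228 bases. The Hadhb window (RefSeq, GRCm38.p6, chr5:30155003-30155302, plus strand) is shown because 228 of its bases also lie in the Hadha window. It holds the RefSeq start of Hadhb, at 30155253, while that of Hadha, at 30154980, lies outside it. The gene limits given above are from GENCODE and differ from these RefSeq starts. Capitals mark the bases that also lie in the Hadha window, which reads the other strand.
Hadhb: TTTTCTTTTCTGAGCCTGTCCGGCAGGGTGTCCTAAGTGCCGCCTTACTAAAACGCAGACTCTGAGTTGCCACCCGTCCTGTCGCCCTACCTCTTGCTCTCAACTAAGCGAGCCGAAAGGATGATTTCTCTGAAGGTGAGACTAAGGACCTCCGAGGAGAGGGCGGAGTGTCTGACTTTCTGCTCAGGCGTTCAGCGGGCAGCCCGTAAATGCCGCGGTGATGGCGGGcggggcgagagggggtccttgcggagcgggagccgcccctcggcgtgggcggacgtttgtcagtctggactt

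**Figure D2:**
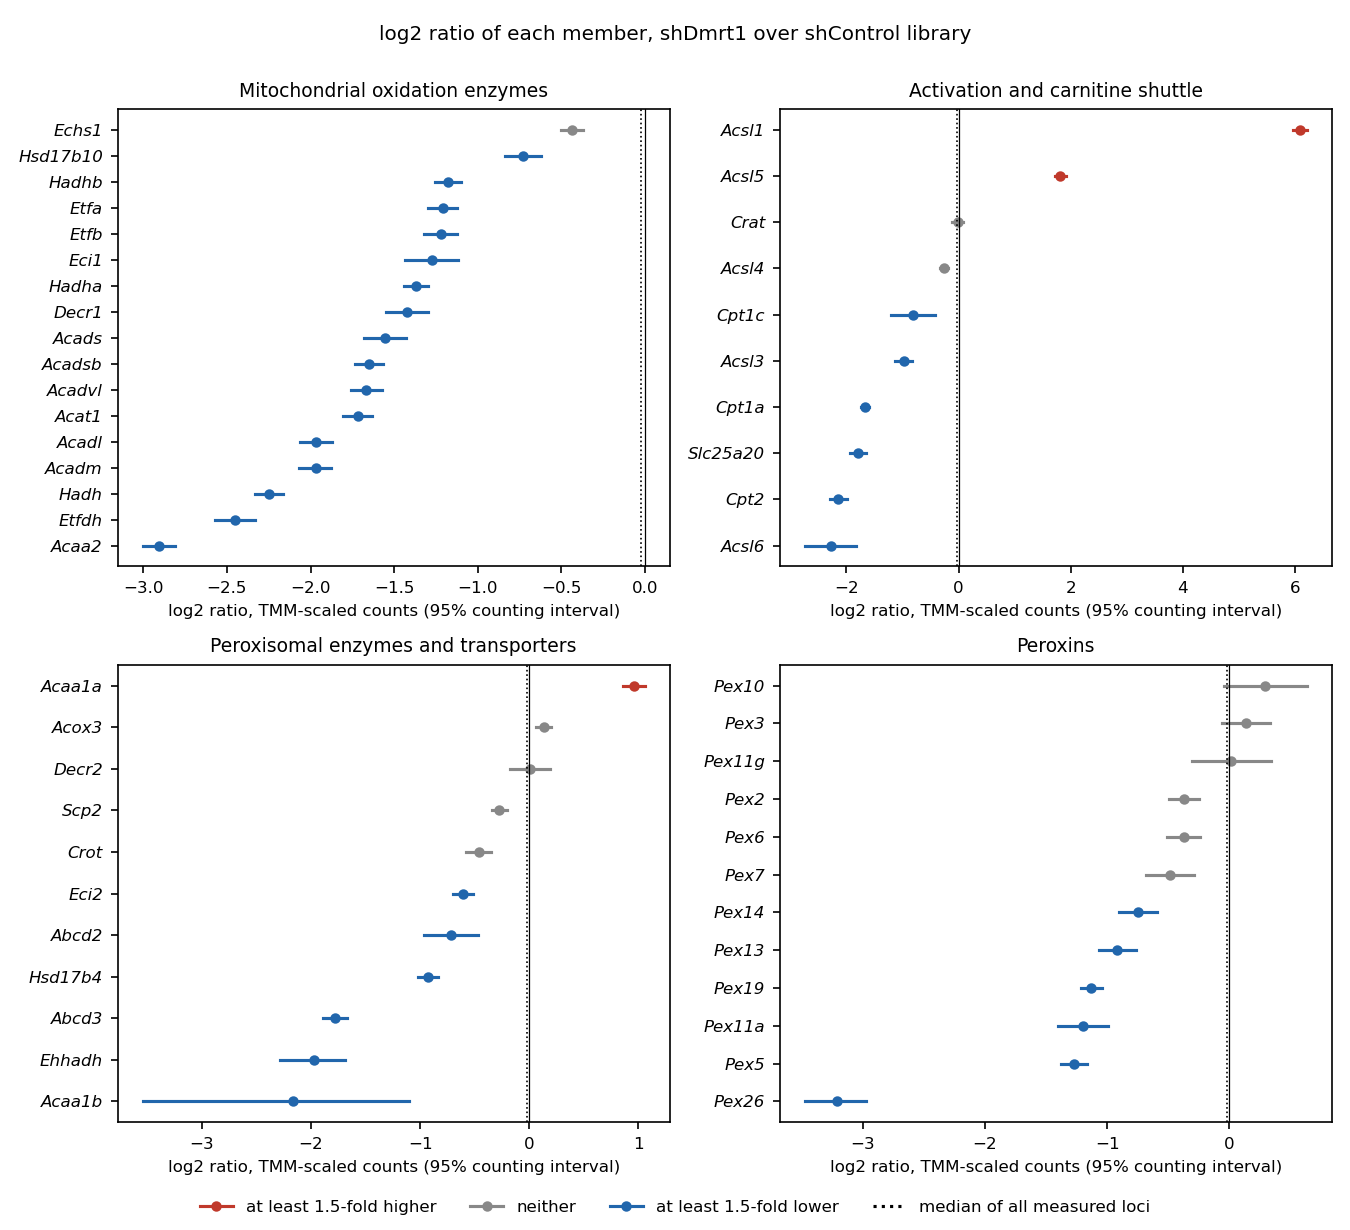
The log2 ratio of shDmrt1 over shControl for each of the 50 measured members, by role, with points at the ratio and lines for the 95% counting interval; the dotted line is the median of all measured loci. The horizontal scales differ between panels, and Acsl1 stands alone at 6.09.

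The genes for fatty acid activation went in opposite directions, and those of the carnitine shuttle were mostly lower. Acsl1 (ENSMUSG00000018796, chromosome 8, 46471037 to 46536051 on GRCm38, protein-coding), which makes a long-chain acyl-CoA synthetase of fat, liver and muscle that is also known from activated macrophages, had 36496 counts in the shDmrt1 and 529 in the shControl library. It was 68.0-fold higher in the shDmrt1 library, a log2 ratio of 6.09 (5.96 to 6.21), the highest of the 50 measured members. By FPKM it was first of the 51 members in the shDmrt1 library, at 490 FPKM, and 44th in the shControl library, at 8.24 FPKM. Acsl5, of intestine and liver mitochondria, had 3661 shDmrt1 and 1023 shControl counts, or 75.6 and 18.8 FPKM, and was 3.53-fold higher (log2 1.82, interval 1.72 to 1.92). Acsl4, which prefers arachidonic acid, was neither, with 2513 shDmrt1 and 2971 shControl counts, or 27.1 and 34.4 FPKM, and a log2 ratio of -0.26 (-0.34 to -0.18). Acsl3, an enzyme of the endoplasmic reticulum and lipid droplets, was lower with 552 shDmrt1 and 1070 shControl counts, or 8.82 and 16.7 FPKM (log2 -0.97, interval -1.13 to -0.83). Acsl6, a brain and testis form, was 4.81-fold lower with 51 shDmrt1 and 244 shControl counts, or 1.02 and 3.69 FPKM (log2 -2.27, interval -2.74 to -1.84).

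The makeup of the synthetase transcripts therefore differed. Acsl1 accounted for 81.3% of the summed FPKM of the 5 genes in the shDmrt1 library and 10.1% in the shControl library. Acsl4 accounted for 4.50% in the shDmrt1 and 42.0% in the shControl library. Acsl5 accounted for 12.5% in the shDmrt1 and 23.0% in the shControl library. The 5 genes summed to 603 FPKM in the shDmrt1 and 81.9 FPKM in the shControl library. Macrophage and neutrophil markers, given above, were higher in the same library as Acsl1 and Acsl5, and their part in these 2 ratios was not tested.

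**Figure D3:**
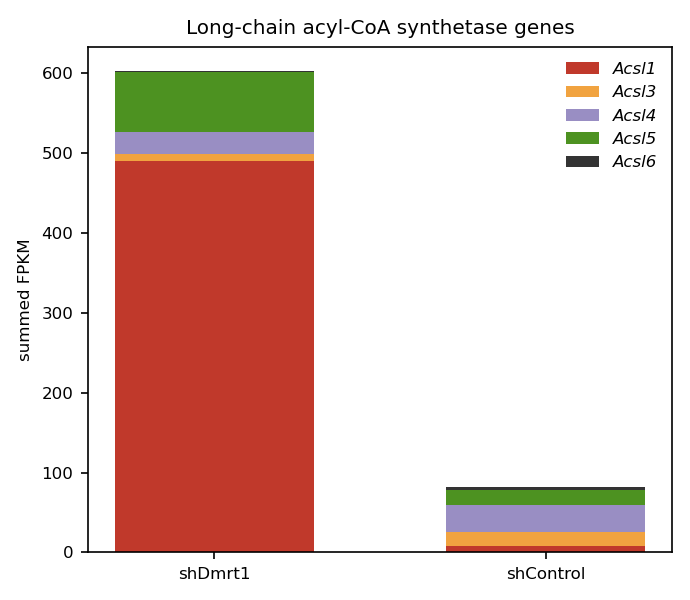
Deposited FPKM of the 5 long-chain acyl-CoA synthetase genes, stacked, in the shDmrt1 and the shControl library. The shDmrt1 bar reaches 603 FPKM, of which Acsl1 makes up 490, against 81.9 FPKM in the shControl library.

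The RefSeq promoter windows of Acsl1 (GRCm38.p6, plus strand) are shown because no other member had a higher ratio. They mark different starts, chr8:46470787-46471086 and chr8:46490716-46491015, and gene counts do not tell which start was used. Capitals mark GC boxes (the letters GGGCGG on either strand, some overlapping), of which the first window holds 7 and the second 0. The first is richer in G and C, at 74.0% of its bases.
Acsl1, first start: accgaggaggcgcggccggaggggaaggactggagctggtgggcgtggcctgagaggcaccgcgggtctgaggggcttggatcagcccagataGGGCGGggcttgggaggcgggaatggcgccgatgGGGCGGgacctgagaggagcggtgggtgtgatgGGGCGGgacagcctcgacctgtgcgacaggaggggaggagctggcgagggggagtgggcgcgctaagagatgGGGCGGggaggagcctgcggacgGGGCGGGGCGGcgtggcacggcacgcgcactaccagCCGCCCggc
Acsl1, second start: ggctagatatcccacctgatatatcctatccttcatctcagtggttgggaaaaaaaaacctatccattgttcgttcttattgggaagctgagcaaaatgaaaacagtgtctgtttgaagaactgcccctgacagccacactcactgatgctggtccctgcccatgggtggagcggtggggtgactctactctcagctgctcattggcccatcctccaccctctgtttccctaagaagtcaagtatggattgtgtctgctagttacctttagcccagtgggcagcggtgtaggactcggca

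Windows were found for 43 of the 51 members, 50 in all. The GC box, a motif chosen after the data were seen, was in 37 of the 50, against 35.66% of 32851 windows of the same length. The PPAR response element (AGGTCA, any 1 base, AGGTCA) was in 0 of the 50 and in 0.0396% of all windows. Only 13 of the 32851 windows held this exact spelling, so its absence from 50 says little. Elements spelled otherwise or lying outside the windows were not searched. A steroidogenic factor site spelled TCAAGGTCA was in 1, of Acsl6, against 0.423%, and a cyclic AMP response element spelled TGACGTCA in 2, of Pex11g and Pex13, against 1.79%. Both strands were searched, the first of these elements and TCAAGGTCA have AGGTCA in common, and these matches describe the letters of the windows alone.

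Cpt1a, Slc25a20 and Cpt2, whose proteins move long chains into mitochondria on carnitine, were all lower. Cpt1a, the rate-limiting outer membrane transferase, had 1964 counts in the shDmrt1 and 6164 in the shControl library, or 23.0 and 71.5 FPKM, 3.18-fold lower (log2 -1.67, interval -1.74 to -1.60). The inner membrane exchanger gene Slc25a20 had 497 shDmrt1 and 1704 shControl counts, or 15.9 and 54.8 FPKM, 3.47-fold lower (log2 -1.80, interval -1.95 to -1.65). Cpt2, the inner membrane transferase, had 435 shDmrt1 and 1898 shControl counts, or 10.7 and 47.8 FPKM, 4.42-fold lower (log2 -2.14, interval -2.30 to -1.99). The brain form Cpt1c was scarce, at 2.21 FPKM in the shDmrt1 and 3.15 FPKM in the shControl library. Its 89 shDmrt1 and 154 shControl counts gave a log2 ratio of -0.81 (-1.20 to -0.43), which is called lower, but the FPKM values gave -0.49, which is less than 1.5-fold. Crat, the transferase for short chains, was neither, with 1498 shDmrt1 and 1496 shControl counts. Over the 10 measured genes of activation and shuttle, 6 were lower, 2 higher and 2 neither (median log2 ratio -0.89). Among all measured loci the shares were 32.5% lower and 29.7% higher. The summed FPKM of these 10 genes was 676 in the shDmrt1 and 279 in the shControl library. That is a log2 ratio of 1.27, beside 0.51 over all loci. Without Acsl1 the log2 ratio of the remaining genes was -0.54.

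**Figure D4:**
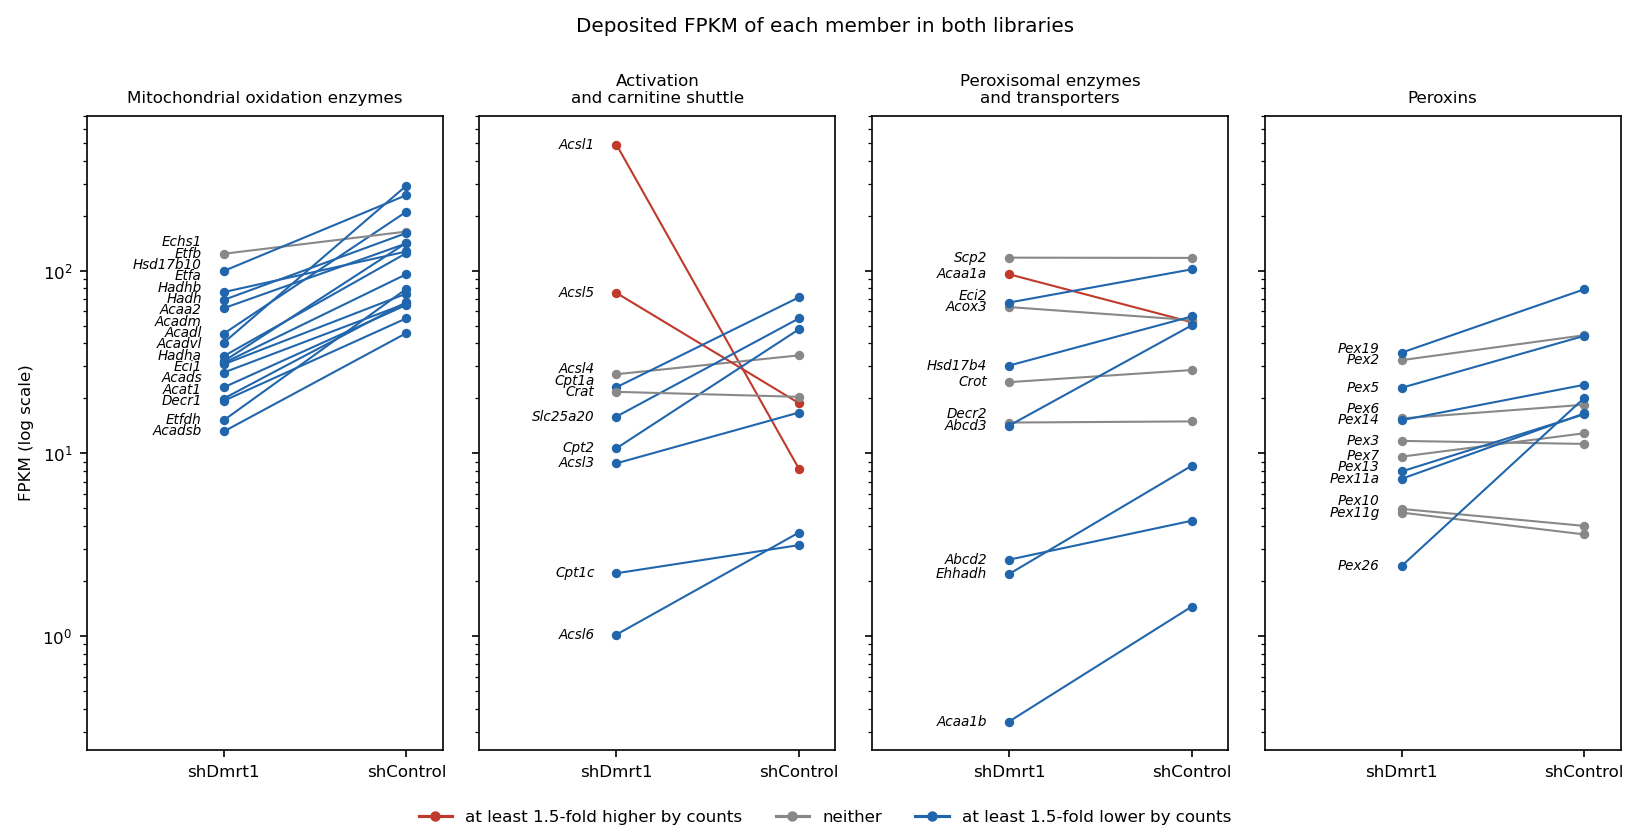
Deposited FPKM (log scale) of the 50 measured members in the shDmrt1 library, left in each panel, and the shControl library, right, joined by lines and coloured by the call on counts. All 17 mitochondrial enzymes lie lower in the shDmrt1 library, while Acsl1 and Acsl5 cross the other genes of their panel.

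The peroxisomal enzymes and transporters were divided. Of 11 measured, 6 were lower, 1 higher and 4 neither (median log2 ratio -0.60), beside 32.5% lower and 29.7% higher among all measured loci. The major thiolase gene Acaa1a was the higher one, with 2464 counts in the shDmrt1 and 1249 in the shControl library, or 95.6 and 52.3 FPKM, and a log2 ratio of 0.96 (0.86 to 1.06). With library totals its ratio was 0.52, short of 1.5-fold, so that call depends on the scaling. Acaa1a shares exon bases with Myd88 on the opposite strand, which had 1754 shDmrt1 and 627 shControl counts, a ratio that was also higher (log2 1.46). Its close copy Acaa1b was scarce, with 8 shDmrt1 and 37 shControl counts, or 0.340 and 1.45 FPKM, and was lower at -2.16 (-3.54 to -1.10). Reads of such similar genes can be counted for either, so both ratios are uncertain.

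Enzymes of the first and middle steps of the peroxisomal cycle differed among themselves. The oxidase gene Acox3, for branched chains, was neither, with 3878 counts in the shDmrt1 and 3486 in the shControl library and a log2 ratio of 0.13 (0.07 to 0.20), or -0.31 with library totals. Acox2, an oxidase of bile acid intermediates and branched chains, had 12 shDmrt1 and 0 shControl counts and was the 1 member below the filter. No fold is given for it. The bifunctional enzyme genes were both lower. Ehhadh, of the classical inducible pathway, had 121 shDmrt1 and 471 shControl counts, or 2.18 and 8.55 FPKM, and was 3.94-fold lower (log2 -1.98, interval -2.28 to -1.69). Hsd17b4, which handles branched and very long chains, had 1472 shDmrt1 and 2766 shControl counts, or 30.2 and 56.1 FPKM, and was 1.91-fold lower (log2 -0.93, interval -1.02 to -0.84).

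Among the other peroxisomal members, Scp2, a thiolase and sterol carrier, was neither, with 3077 shDmrt1 and 3668 shControl counts, or 118 and 117 FPKM. The auxiliary gene Decr2 was also neither, at a log2 ratio of 0.01 (-0.18 to 0.19). Eci2, an isomerase found in peroxisomes and mitochondria, had 1656 shDmrt1 and 2482 shControl counts and lay just past the rule, 1.52-fold lower. Crot, which moves shortened chains onto carnitine, lay just short of it at -0.46 (-0.58 to -0.35). The membrane transporter gene Abcd3 had 870 counts in the shDmrt1 and 2951 in the shControl library, or 14.2 and 50.1 FPKM, and was 3.44-fold lower (log2 -1.78, interval -1.89 to -1.67). Its relative Abcd2 had 217 shDmrt1 and 351 shControl counts and was 1.64-fold lower, nearer to no change than Abcd3.

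Of the 12 peroxins, 6 were lower, 6 neither and 0 higher (median log2 ratio -0.62). Of all measured loci, 32.5% were lower and 29.7% higher. Pex26 (ENSMUSG00000067825, chromosome 6, 121183667 to 121198837 on GRCm38, protein-coding), the membrane anchor of the ATPase complex that recycles the import receptor, stood lowest of the 50 measured members. It had 147 counts in the shDmrt1 and 1349 in the shControl library, or 2.42 and 20.1 FPKM, 9.28-fold lower (log2 -3.21, interval -3.47 to -2.97). Its partner Pex6, a subunit of that ATPase, was neither, with 796 shDmrt1 and 1018 shControl counts and a log2 ratio of -0.38 (-0.51 to -0.24). The receptor gene Pex5, which binds the C-terminal import signal, had 1002 shDmrt1 and 2381 shControl counts, or 22.9 and 44.0 FPKM, and was 2.41-fold lower (log2 -1.27, interval -1.38 to -1.16). Pex7, the receptor for the N-terminal signal, was neither, at -0.48 (-0.68 to -0.29).

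The docking genes Pex13 and Pex14 were lower, at -0.92 (-1.07 to -0.77) and -0.75 (-0.90 to -0.59). Pex2 and Pex10, subunits of the membrane ubiquitin ligase, were neither, at -0.37 (-0.49 to -0.24) and 0.29 (-0.05 to 0.63). Of the genes for inserting membrane proteins, Pex19 had 1564 counts in the shDmrt1 and 3371 in the shControl library, or 35.6 and 79.0 FPKM, 2.19-fold lower (log2 -1.13, interval -1.22 to -1.04). Its partner in insertion, Pex3, was neither, with 465 shDmrt1 and 417 shControl counts. The division gene Pex11a, an inducible form, had 278 shDmrt1 and 628 shControl counts, or 7.26 and 16.5 FPKM, 2.29-fold lower (log2 -1.19, interval -1.40 to -0.99). Pex11g was neither, with 162 shDmrt1 and 158 shControl counts. Within each of these pairs, both members were in the same class only for docking and for the ligase. With library totals 9 of 12 peroxins were lower, Pex2, Pex6 and Pex7 being the added ones, while the share of lower genes among all measured loci was 45.6% under that scaling.

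Set side by side, 16 of the 17 mitochondrial enzymes lay below the median peroxin and below the median peroxisomal enzyme or transporter, whereas 1 of 12 peroxins, Pex26, and 3 of 11 peroxisomal members lay below the median mitochondrial enzyme. Summed FPKM of the mitochondrial enzymes was 763 in the shDmrt1 and 2170 in the shControl library, 2.84-fold lower. For the peroxisomal enzymes and transporters it was 433 in the shDmrt1 and 489 in the shControl library, 1.13-fold lower. For the peroxins it was 170 in the shDmrt1 and 294 in the shControl library, 1.73-fold lower. The mitochondrial sum was 1.76 times the peroxisomal sum in the shDmrt1 library and 4.44 times in the shControl library, and its ratio to the sum over peroxins was 4.48 in the shDmrt1 and 7.37 in the shControl library. These within-library ratios are free of the scaling between libraries. They carry no test, since a library stands alone in its group. The folds of summed FPKM between libraries depend on the measure. Over all loci the summed FPKM was itself higher in the shDmrt1 library, at a log2 ratio of 0.51. For the 3 lists above, summed FPKM gave log2 ratios of -1.51 (mitochondrial), -0.18 (peroxisomal) and -0.79 (peroxins). Summed TMM-scaled counts gave -1.58, -0.36 and -0.93 in the same order.

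The authors' deposited table, made with EBSeq (thresholds of 0.01 for the FDR and 2 for the fold), calls 9 of the 51 members down, 1 up and 40 normal, with no value for Acox2. Its down calls are 5 mitochondrial enzymes (Acadl, Acadm, Hadh, Acaa2 and Etfdh), Cpt2, Acsl6, Ehhadh and Pex26, and its up call is Acsl1. That comparison also rests on 1 library per group. The share of all loci called by the authors' rule was not computed here, so these counts are not read as a trait of the members.

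Related genes from lists of the same pathways were set beside the members. By the same rule, 32.5% of all measured loci were lower and 29.7% higher. Of 28 measured other peroxisomal proteins, 13 were lower, 3 higher and 12 neither (median log2 ratio -0.50), and catalase (Cat) was neither at -0.20. The lowest was Hao2, a hydroxyacid oxidase, with 12 counts in the shDmrt1 and 1645 in the shControl library, 133-fold lower. Amacr, which readies branched chains for peroxisomal oxidation, stood at a log2 ratio of -3.46 and the nucleotide hydrolase gene Nudt12 at -3.12. Abcd4, Far1 and Ddo were the 3 higher ones, at 1.02, 0.79 and 0.71. Abcd4 is on this list although its protein is a transporter of lysosomes. Of 8 measured genes of carnitine supply and ketone bodies, 7 were lower and 1 higher (median log2 ratio -2.28). Bbox1, the last enzyme of carnitine synthesis, had 2 shDmrt1 and 64 shControl counts (log2 -4.71, interval -8.10 to -3.11), and the ketone body dehydrogenase gene Bdh1 was 11.6-fold lower. The higher gene was Oxct1, whose enzyme uses ketone bodies, with 3983 shDmrt1 and 1610 shControl counts and a log2 ratio of 1.29.

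Of 11 measured other acyl-CoA enzymes, 8 were lower, 3 neither and 0 higher (median log2 ratio -0.99). Here and for the uptake genes, the shares over all measured loci were again 32.5% lower and 29.7% higher. The very-long-chain synthetase gene Acsbg1, known from brain, testis and adrenal gland, had 776 counts in the shDmrt1 and 43181 in the shControl library, 56.4-fold lower, in contrast to the higher Acsl1. Acss1 and Acsf2 were 6.53-fold and 4.45-fold lower. Of 5 measured uptake genes, 3 were lower and 2 neither (median log2 ratio -3.04). Slc27a3 was 16.2-fold lower, the scavenger receptor and fatty acid translocase gene Cd36 8.25-fold lower and the transporter gene Slc27a6 had 173 shDmrt1 and 1403 shControl counts. Cd36 is also expressed by macrophages, whose markers above were higher, and the part of cell content in its ratio was not tested.

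Of 9 genes that regulate the pathway, 4 were higher, 2 lower and 3 neither (median log2 ratio 0.12), beside 29.7% higher and 32.5% lower among all measured loci. With library totals 3 were higher and 4 lower (median -0.32), beside 20.6% higher and 45.6% lower among all loci, so nothing about the regulators as a group is read from these counts. Ppara, the nuclear receptor that drives oxidation genes in liver, had 23 counts in the shDmrt1 and 927 in the shControl library, 40.0-fold lower (log2 -5.32, interval -6.02 to -4.76). Ppard, another PPAR receptor, had 950 shDmrt1 and 333 shControl counts and was 2.81-fold higher. Lpin1, which makes a phosphatase that also acts as a coactivator, was 1.90-fold lower. The coactivator gene Ppargc1b was 4.42-fold higher. Ppargc1a had 64 shDmrt1 and 7 shControl counts, a log2 ratio of 3.08, but its FPKM values of 0.523 in the shDmrt1 and 0.686 in the shControl library gave -0.34, so its direction depends on the measure.

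**Figure D5:**
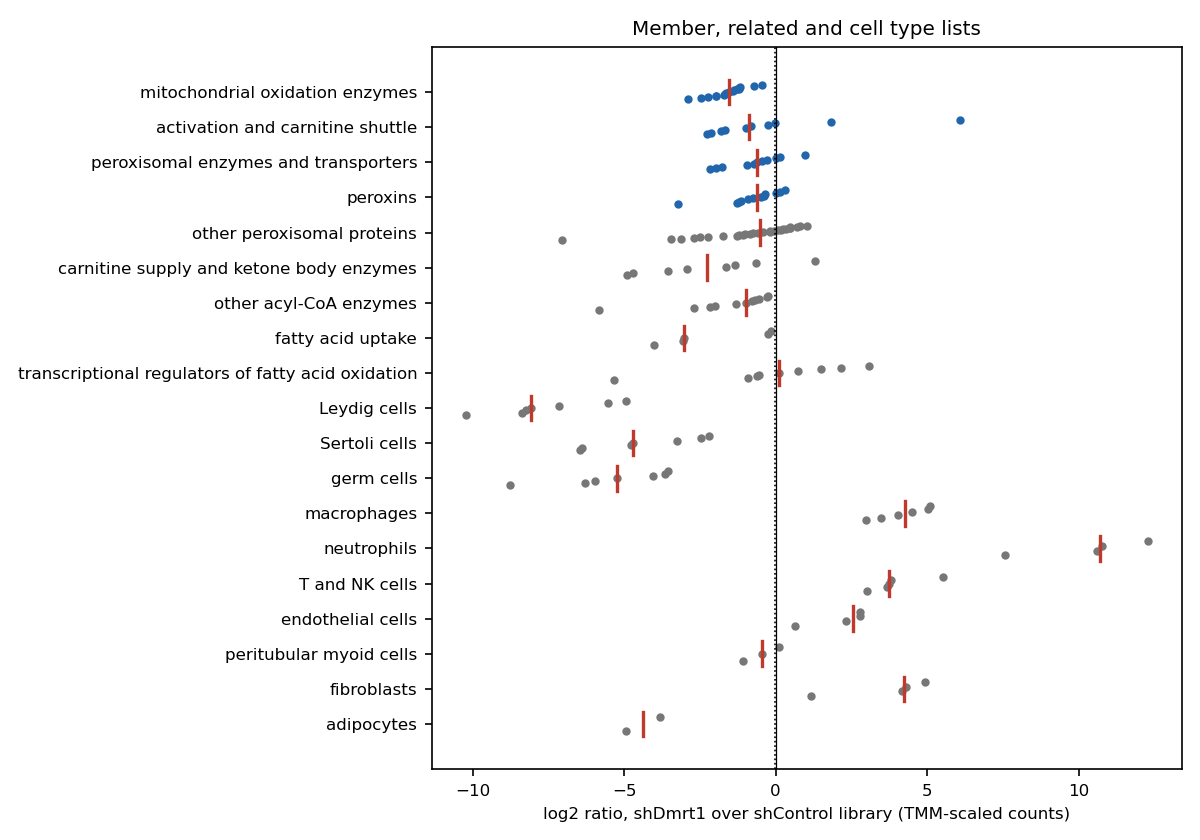
The log2 ratios of shDmrt1 over shControl for the measured genes of the 4 member lists (blue points), the 5 related lists and the 10 cell type lists (grey points), with list medians in red; genes at 0 counts in the shControl library stand at their bound. The mitochondrial enzymes lie between -2.91 and -0.44. The Leydig cell markers lie between -10.22 and -4.92, with a median of -8.06. The Sertoli cell markers lie between -6.45 and -2.20 and the peritubular myoid markers between -1.09 and 0.10, so both overlap the mitochondrial range.

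Adipocyte markers were checked because fat tissue can adhere to testis. They summed to 0.935 CPM in the shDmrt1 and 34.5 CPM in the shControl library over 4 genes, with Cidec at 0 counts in the shDmrt1 library. Plin1 alone made up 31.6 CPM of the shControl sum, so the sum rests mainly on 1 gene. Adipoq had 2 shDmrt1 and 34 shControl counts, Cidec and Retn were below the filter, and Lep was not analysed here. The part of these markers in the lower ratios was not tested. Other cell type lists, with medians in log2, were T and NK cells at 3.75, fibroblasts at 4.23, endothelial cells at 2.55, peritubular myoid cells at -0.45, Sertoli cells at -4.69, germ cells at -5.23 and neutrophils at 11.52, or 10.69 with genes at 0 counts set at their bound.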

How the data were processed

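RNA of 2 testis libraries was compared, 1 shDmrt1 and 1 shControl. TRIzol RNA went into a strand-marking mRNA kit, per the labels' protocols. Tools listed without role or order, per the submitters' processing notes, are STAR 2.5.3a, Trimmomatic 0.36, Subread 1.5.1, featureCounts, DESeq and edgeR 3.12.1, with mm10 as build. The authors deposited raw read counts and FPKM values per locus, per the file headers, beside their EBSeq comparison; neither the strand counted nor the annotation is stated in these sources. The deposited FPKM values follow transcript length, so levels between genes are compared in FPKM only.

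Here, counts were scaled with edgeR 4.0.16 TMM factors (0.858 for shDmrt1, 1.17 for shControl; R 4.3.3). Log2 ratios used a prior count of 0.5, and intervals are Clopper-Pearson intervals at 95% of the shDmrt1 share of both counts, computed with scipy 1.17.1. Reads carry no molecular identifiers here, so intervals and the floor of 3 counts cover counting error only. No test was possible with 1 library per group. The ratio and interval code was tested on simulated data. Full values were given for up to 4 higher and 4 lower members of a list by size of ratio, for subunits and isoforms, and for up to 3 each way in related lists, of which 1 gene is not reported here. Other members are given where their role pairs with one of these. The members and lists were chosen with earlier results of these data known. Alternatives were size factors from DESeq2 1.42.0, library totals, a larger prior count (5), the FPKM values with a pseudocount of 0.1, no filter or 5 CPM, a 2-fold rule, and Eci2 counted as mitochondrial. All 51 members matched a GENCODE M21 gene, whose GRCm38 position (mm10 in UCSC naming) is given. A planned look at protein import signals was not run, as no protein table was at hand.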

Additional observations from a re-analysis of the deposited data

How the results depend on the processing

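No paired analysis was possible because shDmrt1 and shControl have 1 library each, and leaving out a library was likewise not possible. DESeq2 size factors and a prior count of 5 left all 50 member ratios inside their counting intervals, and no called member changed sign under any scaling, prior or FPKM alternative. Library totals lowered the log2 ratios of all measured loci by a median of 0.44; the medians were then -1.59 for all members, -1.997 for mitochondrial enzymes, -1.33 for activation and shuttle, -1.05 for peroxisomal members and -1.06 for peroxins, and 41 of 50 members were lower and 2 higher, against 45.6% lower and 20.6% higher among all measured loci under that scaling. Calls changed for 8 members: Echs1, Acsl4, Scp2, Crot, Pex2, Pex6 and Pex7 became lower, and Acaa1a became neither, leaving 0 higher peroxisomal members. With no filter 2 peroxisomal members were higher, since Acox2 entered. With the whole interval beyond 2-fold, 15 mitochondrial enzymes, 4 activation and shuttle genes, 3 peroxisomal members and 3 peroxins were lower. The higher members were then 2 activation and shuttle genes, with 0 peroxisomal members. Fewer calls follow from the stricter rule, and the share of all loci under it was not computed. FPKM values moved 15 of 50 ratios beyond their counting interval, none by over 1.5 times, and changed the call of Cpt1c alone. The log2 ratio of summed levels was, with summed counts in place of FPKM, -1.58 against -1.51 for mitochondrial enzymes, 1.45 against 1.27 for activation and shuttle, -0.36 against -0.18 for peroxisomal members and -0.93 against -0.79 for peroxins. Without the most abundant member of each list it was -0.54 for activation and shuttle, which reversed once Acsl1 (490 of 676 FPKM in the shDmrt1 and 8.24 of 279 FPKM in the shControl library) was left out, -0.24 for peroxisomal members and -0.68 for peroxins. Of the 51 members, 15 share exon bases with an annotated gene on the opposite strand, which for 10 has a row in the deposited table, and how such reads were assigned is not given in the sources used here. Etfb, Acsl3 and Crot share them with a gene on the same strand. Depth limits Acaa1b, Acox2, Acsl6 and Cpt1c most.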
